A study of Mus musculus with 12 samples.

Results

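The genes described here are those of the bone morphogenetic protein (BMP) and transforming growth factor β (TGF-β) pathway, taken by name from 2 lists of binding windows of the circadian repressor Rev-Erbα in mouse brown adipose tissue. A window was taken when the authors' annotation, which gives each window 1 gene, named a Bmp, Bmpr, Bmper, Gdf, Tgfb, Tgfbr, Tgfbi, Acvr, Inhb, Smad, Smurf, Ltbp, Id1 to Id4, Fst or Fstl gene or a further antagonist gene of the rule, such as Nog. This gave 90 of the 13410 listed windows: 76 of 11227 in the list made from cold tissue and 14 of 2183 in the list made at thermoneutrality. They formed 83 separate sites of 11740 and named 30 genes. Of the 72 protein-coding genes in the mouse gene table whose symbols fit, those 30 were the annotated gene of a window. The label fits most of the 30. Bmp2k, a kinase named for its induction by a BMP, fits by name alone and is given last. Tgfbi, a matrix protein named for its induction by TGF-β, and Fstl4, of less settled function, are kept by name among the extracellular regulators.

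BMPs, growth and differentiation factors, activins and TGF-βs are secreted dimers that assemble a type I and a type II receptor kinase on the target cell. The type I receptor phosphorylates Smad1, Smad5 and Smad9 on the BMP side or Smad2 and Smad3 on the TGF-β and activin side, and these enter the nucleus with Smad4. Smad6, Smad7 and the Smurf ubiquitin ligases restrain the signal, and the Id genes are classic targets of the BMP branch. In fat, BMP ligands are known for promoting brown adipocyte formation, while TGF-β and Smad3 are known for restraining browning. Rev-Erbα, encoded by Nr1d1, is a heme-binding nuclear receptor that represses genes near its binding sites.

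All animals were C57BL/6 mice kept for 1 week either at 4 °C (chronic cold) or at 29 °C (thermoneutrality), and brown adipose tissue was taken from each. In HA-RevErbα mice the receptor carries an HA tag. Wild-type (WT) mice lack it and went through the same pull-down with HA magnetic beads, so their reads measure background. There were 4 HA-RevErbα and 2 WT libraries at each temperature, 12 in all. The labels do not say whether a library came from 1 animal, how old the animals were or how the tag was introduced.

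Each library held between 27.0 and 37.3 M aligned reads. Binding was given for 4 pools only, one per genotype and temperature, called here the cold HA, cold WT, warm HA and warm WT pools. Their sizes came out at 63.8, 27.1, 60.8 and 25.1 M reads. The values are FPKM (fragments per kilobase and per M reads of the pool) in windows of 200 bp. In that unit 3 reads are worth 0.235 in the cold HA pool, 0.553 in cold WT, 0.247 in warm HA and 0.598 in warm WT. With 1 pool per condition there is no spread between animals and no test between temperatures. The ratio of cold HA to warm HA, each per pool read, is given with its exact (Clopper-Pearson) 95% interval, which covers counting error only, and a ratio of at least 2 or at most 0.5 is called. In bulk tissue more bound sites per cell, more tagged protein and more cells of a type cannot be told apart. Of 10 brown fat marker genes, 5 were the annotated gene of a cold-list window (Cidea, Dio2, Elovl3, Ppargc1a and Ucp1), against 21.8% of all protein-coding genes. Cox8b, Ebf2, Lhx8, Prdm16 and Zic1 had no window in either list. Binding near a gene is not expression of it, so the tissue label cannot be checked from these values.

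Sequences of the windows themselves are not printed, since their build is mm9 and no mm9 genome was used here. RefSeq promoters of build GRCm38.p6, running from 250 bases before to 50 after a start, show what the starts of these genes hold. Of the 53 genes with an entry, 25 were genes with a window. The 3 promoters below are shown because each carries a motif of the receptor or of the Smads: capitals mark AGGTCA, the nuclear receptor half-site, in Bmpr1b (chr3:141931539-141931838, minus strand), GTCTAGAC, the palindrome bound by Smads, in Smad6 (chr9:64022010-64022309, minus strand), and GGCGCC, a GC-rich element bound by BMP Smads, in Bmp2k (chr5:96997439-96997738, plus strand).
Bmpr1b: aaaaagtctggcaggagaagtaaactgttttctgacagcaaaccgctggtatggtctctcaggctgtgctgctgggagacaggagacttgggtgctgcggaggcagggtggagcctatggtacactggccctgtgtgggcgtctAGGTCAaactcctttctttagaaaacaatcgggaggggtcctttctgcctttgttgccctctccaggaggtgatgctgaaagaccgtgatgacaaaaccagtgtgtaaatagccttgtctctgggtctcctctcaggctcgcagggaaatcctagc
Smad6: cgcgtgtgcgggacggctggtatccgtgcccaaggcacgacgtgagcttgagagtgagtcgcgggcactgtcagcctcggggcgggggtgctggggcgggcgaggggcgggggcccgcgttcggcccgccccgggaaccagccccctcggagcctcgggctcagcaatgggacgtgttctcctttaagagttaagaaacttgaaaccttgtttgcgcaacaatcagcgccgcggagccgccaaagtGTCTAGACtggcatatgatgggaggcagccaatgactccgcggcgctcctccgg
Bmp2k: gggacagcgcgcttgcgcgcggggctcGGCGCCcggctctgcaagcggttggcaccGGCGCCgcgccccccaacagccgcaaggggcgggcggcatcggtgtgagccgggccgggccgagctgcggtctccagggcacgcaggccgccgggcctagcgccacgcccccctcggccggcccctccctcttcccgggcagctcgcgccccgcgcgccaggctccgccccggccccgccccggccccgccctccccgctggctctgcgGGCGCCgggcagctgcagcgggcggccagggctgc

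Both strands were searched. AGGTCA occurred in 16.3% of all 32851 promoters and in 7 of 66 promoters of pathway genes (10.6%). Among the 34 promoters of genes with a window it was found in 1, that of Bmpr1b, where it starts at -106 from the gene's start. Bmpr1b has 3 promoters in the table. The longer ROR element, an AGGTCA preceded by an A/T-rich stretch, was in 0.384% of all promoters and in 0 of the 66. GTCTAGAC was in 0.213% of all promoters and in 1 of the 66, that of Smad6, at -4. CACGTG, the E-box read by the clock activators, was in 7.15% of all and in 6 of the 66 (9.09%), with Bmp6 the 1 gene that also had a window. GGCGCC was in 11.9% of all and in 18 of the 66 (27.3%). Among the 34 promoters of genes with a window it was in 11. Their genes were Bmp2k, Bmpr2, Id2, Id4, Ltbp4, Smad5, Smurf2, Tgfbi and Tgfbr1. Bmp2k held 3 copies, at -223, -194 and 15. A match describes the letters only, and none of the pathway windows reached into the 300 bases around a start that these promoters cover.

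In the cold list the windows of the pathway genes carried 3.54 to 25.65 FPKM in the cold HA pool (median 8.05) and 0.34 to 9.39 in the warm HA pool (median 2.39). The WT pools were lower, at medians of 1.30 in the cold and 1.21 in the warm. The cold HA pool was above the cold WT pool in all 76 windows, as the making of the list requires. Cold HA also exceeded warm HA in all 76, with a median ratio of 3.20 and a range of 1.12 to 21.7. Choosing windows by a high cold HA value favours a high ratio. In the pathway windows of the 29 °C list, chosen by warm HA, the median was 1.50. In the cold list the ratio was at least 2 in 68 of 76 windows (89.5%, exact 95% interval 80.3 to 95.3), where 83.4% of all cold-list windows reached 2. Intervals of shares, here and below, count windows or genes as independent. Several windows share a gene and all share the same pools, so these intervals measure no spread between animals. The ratio was at most 0.5 in 0 of 76, against 0.0802% of all. The counting interval lay above 1 in 73 of 76, against 95.4% of all. These shares stand close to those of the whole list, whose median ratio was 3.05, so a higher cold signal was the rule for the list and not a mark of these genes.

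**Figure D1:**
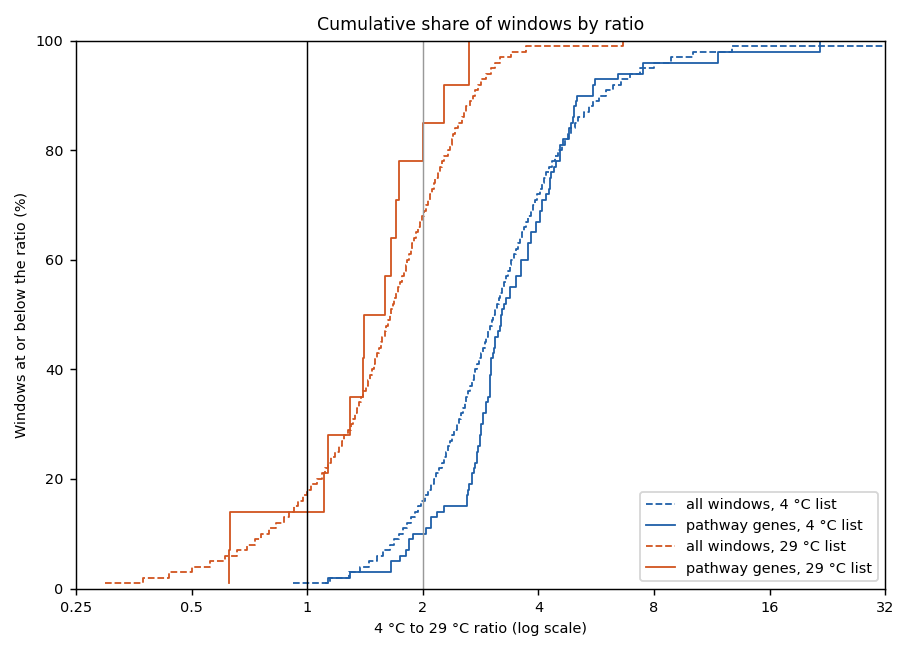
Cumulative share of windows (y, percent) at or below a given cold to warm ratio (x, log scale), for the pathway genes (solid) and all windows (dashed) of the cold list (blue) and of the 29 °C list (orange). The pathway genes of the cold list follow the curve of all cold-list windows, with medians of 3.20 and 3.05.

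How the pools are scaled sets the size of this ratio. Scaling the warm pool so that the WT pools hold equal reads over windows shared by both lists divides it by 1.44, so that the ratio of every window is lower by 0.53 on the log2 scale. The median then became 2.22, and 51 of 76 pathway windows reached 2 (67.1%), against 55.4% of all. Scaling on WT reads over the whole 29 °C list divides it by 1.71 (0.77 on the log2 scale) and gave a median of 1.88 and 34 of 76 windows (44.7%), against 39.7% of all. Cold HA then exceeded warm HA in 73 and 72 of the 76 windows, so the direction turned at 3 and 4 windows with small ratios. Scaling on WT reads over the cold list, or by aligned reads, divides the ratio by 1.02 or 0.986. Both left 68 of 76 at 2 or more. Windows enter a list partly by low WT reads at its temperature, so the scalings on WT reads carry that choice.

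The windows were mostly far from gene starts, at a median of 39.8 kb against 27.5 kb for all. Introns held 41 of 76 (53.9%), against 47.8% of all, and 34 were intergenic. Beyond 100 kb from the annotated start lay 18 of 76 (23.7%), against 16.5% of all. Within 1 kb lay 2 of 76, at Smad5 and Bmp2k, against 5.06% of all. Of the 72 pathway genes, 28 had a cold-list window (38.9%, interval 27.6 to 51.1), against 21.8% of all protein-coding genes, and 9 had a window at 29 °C (12.5%, interval 5.88 to 22.4), against 6.3%. Among genes with a cold-list window, 19 of 28 pathway genes had 2 or more (67.9%), against 45.4% of 5451 genes, and 9 of 28 had 4 or more (32.1%), against 13.9%.

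**Figure D2:**
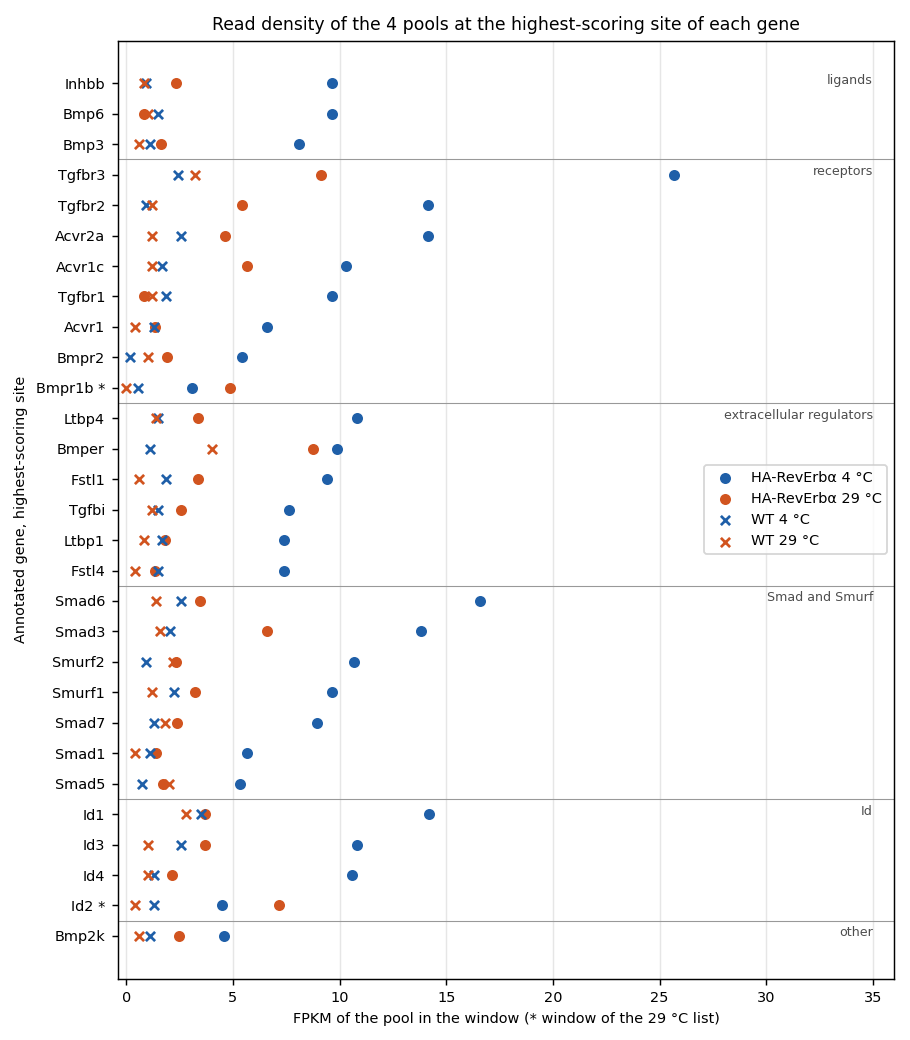
FPKM of the 4 pools (x) at the highest-scoring window of 29 genes (y), by role; circles are HA-RevErbα pools, crosses are WT pools, blue is 4 °C and orange 29 °C. Tgfbr3 stands highest at 25.65 FPKM in the cold HA pool, and Id2 and Bmpr1b, marked with an asterisk, have the warm HA pool above the cold one.

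Of 27 ligand genes 3 had a window, Bmp3, Bmp6 and Inhbb, each with one in the cold list, where 21.8% of all protein-coding genes had one. Bmp2, Bmp4, Bmp7, Bmp8a, Bmp8b, Tgfb1, Tgfb2, Tgfb3 and every Gdf gene were the annotated gene of no window used here. The 7 ligand windows of the cold list had a median ratio of 4.39, all 7 at or above 2, against 83.4% of all cold-list windows.

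Bmp6, a BMP ligand also known for its part in iron control, had 3 sites within 57.2 kb, with ratios from 1.40 to 11.7. At its upstream window, -25.2 kb from the start (chr13:38412332-38412532), the FPKM were 9.66 in cold HA, 1.48 in cold WT, 0.83 in warm HA and 1.01 in warm WT. Here warm HA was no higher than warm WT, and the ratio was 11.7 (6.17 to 25.1). In intron 1 at 31.9 kb the values were 7.30, 0.75, 1.65 and 1.01 in the same order, a ratio of 4.43 (2.71 to 7.59). Between them, at 8.23 kb in the same intron (chr13:38445716-38445916), stood a window of the 29 °C list with 6.36, 1.67, 4.53 and 0.81 FPKM. Its ratio of 1.40 had an interval of 0.985 to 2.02, which overlaps that of neither cold-list window. The intervals of the cold-list windows overlap each other. The window between them was listed by its warm HA, the ratio's denominator. So a warm signal of 4.53 and one at background lay 33.4 kb apart at the same gene.

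Inhbb encodes the β subunit of activin B. Its 4 windows lay 122 to 169 kb from the start, 3 of them within 6.21 kb of each other, and all in the cold list. The strongest, at chr1:121150091-121150291, had 9.66 FPKM in cold HA against 0.93 in cold WT, 2.31 in warm HA and 0.81 in warm WT. The ratios of the 4 ran from 2.27 to 4.39, and their intervals overlapped.

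Bmp3, an atypical ligand that opposes other BMPs, had 1 window at -91.9 kb, inside intron 4 of 5 of its neighbour Cfap299. It held 8.09 FPKM in cold HA, 1.12 in cold WT, 1.65 in warm HA and 0.61 in warm WT, a ratio of 4.91 (3.02 to 8.37).

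Of 13 receptor genes 8 had a window: Acvr1, Acvr1c, Acvr2a, Bmpr1b, Bmpr2, Tgfbr1, Tgfbr2 and Tgfbr3. In the cold list 7 of 13 did, beside the same 21.8% of all genes, and differences between the roles were not tested. Their 25 cold-list windows had a median ratio of 3.0, and 23 reached 2, against 83.4% of all cold-list windows. Bmpr1a, Acvr2b and Acvrl1 were the annotated gene of no window used here.

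Tgfbr3, or betaglycan, the co-receptor that presents TGF-β2 to the signalling receptors, held the strongest window of the whole pathway. In intron 4 of 16 at 124.7 kb (chr5:107593800-107594000) the FPKM were 25.65 in cold HA, 2.41 in cold WT, 9.14 in warm HA and 3.20 in warm WT. Its authors' score of 51.3 ranked 210 of 11227 in the cold list. The ratio was 2.81 (2.26 to 3.52), and warm HA was higher here than cold HA at 49 of the 76 pathway windows. Warm WT was high as well. Warm HA was 2.86 times warm WT, under the limit of 4 times WT seen in the lists, and the window is not in the 29 °C list. The 3 other Tgfbr3 windows, in introns 2 and 4, had 6.20 to 10.91 in cold HA and 2.97 to 3.30 in warm HA. Their ratios ran from 1.88 to 3.49, and the intervals of all 4 overlapped.

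Tgfbr2, the type II receptor for TGF-β, had the most sites, 9 over 332 kb, with 7 in the cold list and 4 in the 29 °C list. Of those, 2 were in both. The highest, at -103.7 kb (chr9:116188127-116188327), had 14.12 FPKM in cold HA, 0.93 in cold WT, 5.44 in warm HA and 1.21 in warm WT, a ratio of 2.60 (1.95 to 3.50). The other shared site, at -293.8 kb, had 10.60, 0.93, 5.19 and 0.61 in that order and a ratio of 2.04 (1.50 to 2.80).

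The 2 sites of the 29 °C list alone lay at -162.8 and -200.9 kb. They had 8.56 and 6.28 FPKM in cold HA and 5.03 and 3.96 in warm HA, so cold HA was higher at both, with ratios of 1.70 (1.23 to 2.37) and 1.59 (1.10 to 2.32). Cold WT was 2.22 and 2.59 there, against 0.21 and 0.81 in warm WT. Cold HA was 3.87 and 2.43 times cold WT there, under the limit of 4 times WT seen in the lists. The making of the cold list thus leaves both sites out, and the higher cold WT is no separate result.

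Nearer Tgfbr2, 5 windows were in the cold list alone. At -101.0 kb (chr9:116185405-116185605) the FPKM were 9.34 in cold HA, 1.30 in cold WT, 3.55 in warm HA and 2.20 in warm WT, a ratio of 2.64 (1.85 to 3.83). At -38.1 kb (chr9:116122434-116122634) they were 7.07, 1.67, 2.15 and 0.81 in that order, a ratio of 3.30 (2.11 to 5.32). At -11.9 kb (chr9:116096260-116096460) they were 6.28, 0.56, 1.65 and 1.21, a ratio of 3.81 (2.31 to 6.57). Cold HA was thus lowest, among these 5, at the window with the highest ratio. Next to the start, at -2.92 kb (chr9:116087298-116087498), they were 9.18, 2.04, 3.38 and 2.40, a ratio of 2.72 (1.89 to 3.98). In intron 1 at 38.4 kb (chr9:116046001-116046201) they were 9.11, 1.67, 2.81 and 1.41, a ratio of 3.25 (2.20 to 4.92). The 4 lowest ratios of the locus belong to the 4 sites farthest upstream, which are also its 4 sites of the 29 °C list. That list is chosen by warm HA, the ratio's denominator, so the order by position is no separate result. The intervals of the smallest and the largest ratio overlapped.

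Tgfbr1, the type I receptor that pairs with Tgfbr2, had the steepest ratios of the pathway. Its 2 windows lay at -59.2 and -57.4 kb, inside intron 28 of 39 of the collagen gene Col15a1. The first (chr4:47306822-47307022) had 9.66 FPKM in cold HA, 1.85 in cold WT, 0.83 in warm HA and 1.21 in warm WT, a ratio of 11.7 (6.17 to 25.1). The second (chr4:47308547-47308747) had 7.15, 1.30, 0.34 and 1.21, a ratio of 21.7 (8.19 to 81.3) that rests on 91 cold and 4 warm HA reads. Both warm HA values were below warm WT. These windows carry the name of Tgfbr1 by its start, and they belong to another gene's body.

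The neighbours Acvr1c and Acvr1 on chromosome 2 shared a stretch of 212 kb with 9 listed windows. Acvr1c encodes ALK7, a type I receptor for activin B and related ligands that is abundant in adipocytes. Acvr1 encodes ALK2, a type I receptor for BMPs. The highest Acvr1c site, intergenic at -61.7 kb (chr2:58271798-58271998) and in both lists, had 10.28 FPKM in cold HA, 1.67 in cold WT, 5.68 in warm HA and 1.21 in warm WT, a ratio of 1.81 (1.34 to 2.46). A site of the 29 °C list alone at -79.3 kb had 5.03, 1.30, 4.45 and 0.81, a ratio of 1.13 (0.774 to 1.65).

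Within the Acvr1c gene the 4 other windows had lower warm values. Those in intron 1 are measured from the nearest of its annotated starts. At 3.18 kb (chr2:58206889-58207089) the FPKM were 9.66 in cold HA, 2.41 in cold WT, 2.39 in warm HA and 1.60 in warm WT, a ratio of 4.04 (2.68 to 6.29). At 1.36 kb (chr2:58175761-58175961) they were 6.75, 1.30, 2.48 and 1.60, a ratio of 2.73 (1.79 to 4.29). At -7.36 kb (chr2:58184480-58184680) they were 4.40, 0.75, 0.91 and 1.80, a ratio of 4.85 (2.52 to 10.3), whose interval lies above that of the -79.3 kb site. In intron 2 at 14.9 kb (chr2:58162209-58162409) they were 4.24, 0.56, 1.49 and 2.0, a ratio of 2.86 (1.65 to 5.18). At these last 2 warm WT exceeded warm HA.

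Acvr1 had windows in introns 2 and 4, with 4.32 and 6.60 FPKM in cold HA and 1.57 and 1.33 in warm HA. Its stronger window, at 81.4 kb (chr2:58337699-58337899), had WT values of 1.30 in the cold and 0.41 in the warm and a ratio of 5.01 (2.91 to 9.16).

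Acvr2a, a type II receptor for activins and BMPs, had 4 cold-list windows, all intergenic and upstream, between -393.2 and -80.0 kb. The next protein-coding gene on that side is Zeb2. The strongest, at -274.1 kb (chr2:48395394-48395594), had 14.12 FPKM in cold HA, 2.59 in cold WT, 4.62 in warm HA and 1.21 in warm WT, a ratio of 3.06 (2.26 to 4.21). The 4 ratios were alike in value, 3.0 to 4.55, with overlapping intervals.

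Bmpr2, the type II BMP receptor, had 1 window in intron 1, 1.19 kb from its start. It held 5.42 FPKM in cold HA, 0.19 in cold WT, 1.90 in warm HA and 1.01 in warm WT, a ratio of 2.86 (1.76 to 4.81).

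Bmpr1b, a type I BMP receptor, was the 1 receptor gene with a ratio below 1. Its 1 window, in intron 3 of 11 at 53.0 kb (chr3:141541487-141541687), is in the 29 °C list alone. Among all windows of that list alone 230 of 513 had a ratio below 1, so this direction is common in windows so chosen. Cold HA was 3.07 FPKM, cold WT 0.56, warm HA 4.86 and warm WT 0.01, the value that the authors' table gives for 0 reads. Against the 3 reads that a count of 0 allows, warm HA was at least 8.11-fold higher than warm WT. The ratio was 0.63 (0.409 to 0.961), with cold HA below warm HA.

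**Figure D3:**
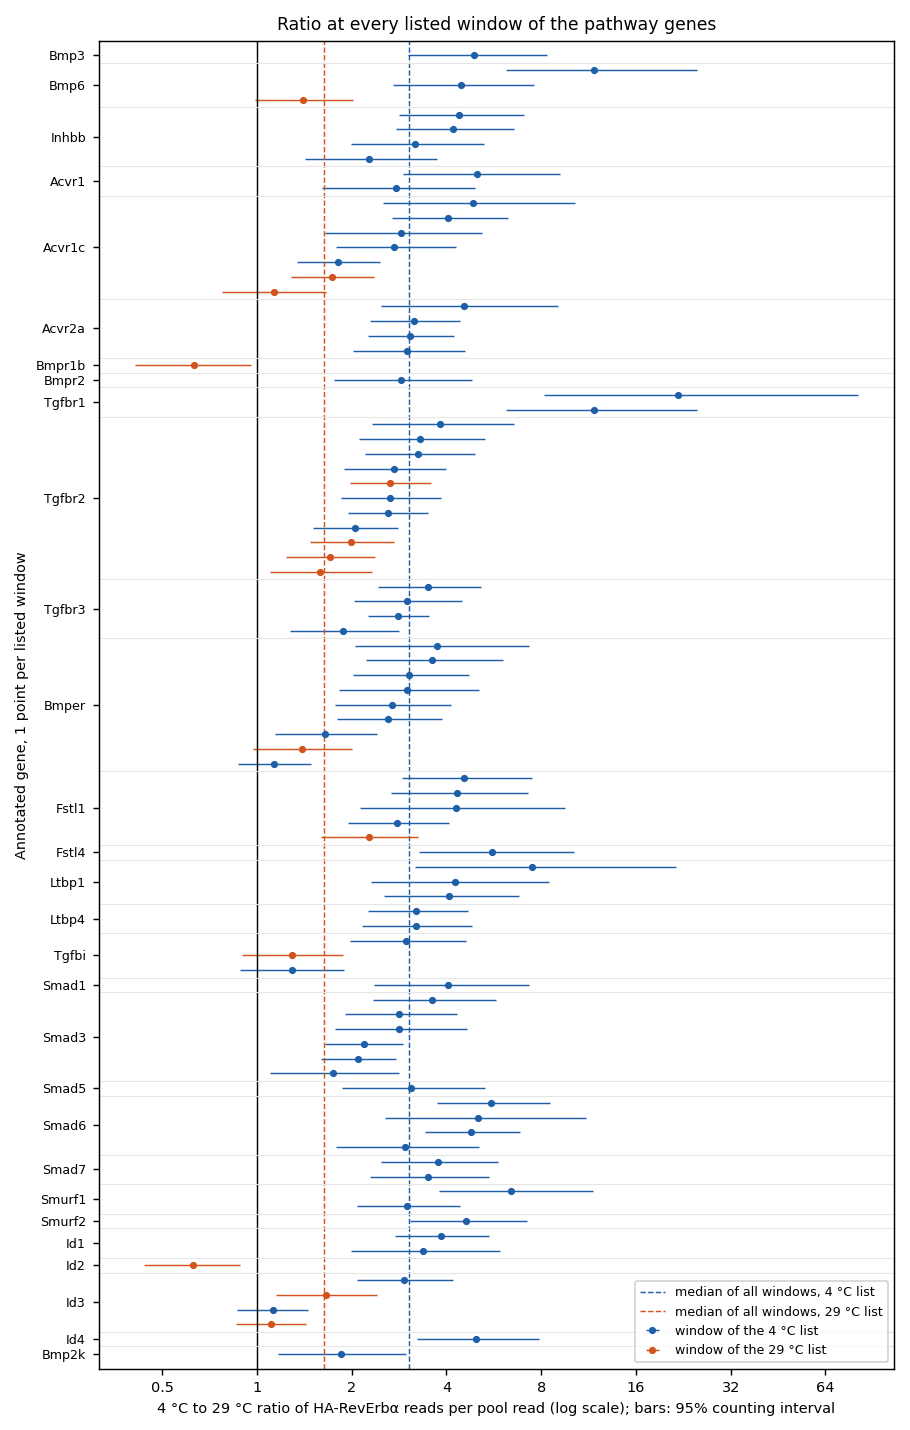
Cold to warm ratio (x, log scale) with its 95% counting interval at 89 listed windows, grouped by gene (y); blue points are windows of the cold list, orange of the 29 °C list, and dashed lines are the medians of all windows of each list (3.05 and 1.64). Tgfbr1 and the upstream Bmp6 window lie farthest right, at 11.7 to 21.7, and Id2 and Bmpr1b are left of 1.

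Among the 15 genes for extracellular regulators 7 had a window, among them Bmper, Fstl1, Fstl4, Ltbp1, Ltbp4 and Tgfbi. Nog and Fst, the antagonists noggin and follistatin, were the annotated gene of no window used here. All 7 had one in the cold list, where 21.8% of all protein-coding genes did. The 21 cold-list windows had a median ratio of 3.21, and 18 reached 2, against 83.4% of all cold-list windows.

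Bmper, a secreted BMP-binding protein that can raise or lower BMP signalling, had 8 sites over 636 kb. Its highest, at -20.5 kb (chr9:23006962-23007162), had 9.89 FPKM in cold HA, 1.12 in cold WT, 8.73 in warm HA and 4.00 in warm WT. The ratio of 1.13 (0.868 to 1.48) was the lowest at the top window of any pathway gene in the cold list. The warm WT value was the highest WT value among pathway windows of the cold list, and the site is not in the 29 °C list. After subtraction of WT its ratio was 1.85, past the upper end of that interval. A window 2.53 kb away, at -23.0 kb, had 4.32, 0.56, 1.16 and 1.80 in the same order and a ratio of 3.75 (2.06 to 7.29). This was 1 of 13 pairs of windows of the same gene within 6 kb of each other, and the 1 pair whose intervals did not overlap. The share of such pairs over all genes was not computed.

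Inside Bmper, the site in intron 6 at 83.8 kb was in both lists, with 6.52, 1.30, 3.96 and 0.81 FPKM and a ratio of 1.65 (1.14 to 2.40). The 5 remaining windows lay at -277.2, 140.4, 172.0, 224.7 and 358.3 kb. Upstream at -277.2 kb (chr9:22750195-22750395) the FPKM were 7.07 in cold HA, 1.67 in cold WT, 2.64 in warm HA and 2.80 in warm WT, a ratio of 2.68 (1.77 to 4.15). In intron 6 at 140.4 kb (chr9:23167784-23167984) they were 6.52, 0.93, 1.82 and 2.0, a ratio of 3.60 (2.23 to 6.05). In intron 11 at 172.0 kb (chr9:23199456-23199656) they were 8.40, 2.04, 3.22 and 1.80, a ratio of 2.62 (1.80 to 3.88). Warm HA was above warm WT at the last of these and below it at the first and second. In intron 13 at 224.7 kb (chr9:23252138-23252338) the values were 7.77, 1.48, 2.56 and 2.80, a ratio of 3.05 (2.02 to 4.72). Past the gene at 358.3 kb (chr9:23385692-23385892) they were 5.42, 1.12, 1.82 and 1.41, a ratio of 2.99 (1.83 to 5.08). In all, warm WT exceeded warm HA at 3 of the 5.

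Ltbp1 and Ltbp4 encode matrix proteins that hold TGF-β in its latent form. Ltbp4 had 2 windows in intron 4, at 2.41 and -1.01 kb from the nearest annotated start, with nearly the same ratio. At the stronger (chr7:28116159-28116359) the FPKM were 10.83 in cold HA, 1.48 in cold WT, 3.38 in warm HA and 1.41 in warm WT, a ratio of 3.21 (2.25 to 4.67). At the weaker they were 8.95, 1.48, 2.81 and 2.80, so warm HA and warm WT did not separate, and the ratio was 3.20 (2.16 to 4.84). Ltbp1 had 3 windows in intron 2 within 21.0 kb, with 3.70 to 7.38 in cold HA and 0.50 to 1.82 in warm HA. Its ratios were 4.07, 4.25 and 7.47, with overlapping intervals.

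Fstl1, a secreted glycoprotein of the follistatin family, had 3 upstream windows between -48.2 and -36.4 kb and a window in intron 3 at 41.2 kb. The intronic one (chr16:37818191-37818391) is in both lists, with 9.42 FPKM in cold HA, 1.85 in cold WT, 3.38 in warm HA and 0.61 in warm WT, a ratio of 2.79 (1.94 to 4.08). The upstream 3 had 3.54 to 8.64 in cold HA, 0.83 to 1.90 in warm HA and ratios of 4.29 to 4.56. Fstl4, a relative of less settled function, had 1 window at -61.2 kb (chr11:52516953-52517153) with 7.38, 1.48, 1.33 and 0.41 and a ratio of 5.60 (3.28 to 10.2).

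Tgfbi, a matrix protein named for its induction by TGF-β, had windows with separate ratios. The upstream one at -8.88 kb (chr13:56701987-56702187) had 7.62 FPKM in cold HA, 1.48 in cold WT, 2.56 in warm HA and 1.21 in warm WT, a ratio of 2.98 (1.97 to 4.63). The one in intron 12 at 25.4 kb (chr13:56736258-56736458), in both lists, had 5.42, 0.75, 4.20 and 0.41, a ratio of 1.29 (0.885 to 1.89). Warm HA was thus higher at the window where cold HA was lower.

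The intracellular arm had 7 of 10 genes with a window: Smad1, Smad3, Smad5, Smad6, Smad7, Smurf1 and Smurf2. Smad2, Smad4 and Smad9 were the annotated gene of no window used here. Of all protein-coding genes 21.8% had a cold-list window. The 17 windows, all in the cold list and none in the 29 °C list, had a median ratio of 3.49, and 16 reached 2. Over the whole cold list 83.4% reached 2, and 14.9% overlapped a window of the 29 °C list.

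Smad3, which carries the TGF-β and activin signal, and Smad6, which blocks the BMP signal, are neighbours on chromosome 9. Together they had 10 windows over 314 kb. Smad3 had 6, of which 4 lay in intron 1 between 37.2 and 46.2 kb. The highest, at 41.7 kb (chr9:63564042-63564242), had 13.81 FPKM in cold HA, 2.04 in cold WT, 6.59 in warm HA and 1.60 in warm WT, a ratio of 2.10 (1.60 to 2.77). Among the 69 pathway windows of the cold list alone, this was the 1 whose warm HA value was at least 3 FPKM and at least 4 times over warm WT, the limits seen in both lists, where 1.0% of all such windows did so. Its neighbour at 46.2 kb (chr9:63559478-63559678) had 13.11, 1.67, 6.01 and 3.0 and a ratio of 2.18 (1.65 to 2.91).

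The other intron 1 windows of Smad3 were lower in the warm pool. At 38.2 kb (chr9:63567513-63567713) the FPKM were 8.01 in cold HA, 0.93 in cold WT, 2.23 in warm HA and 0.41 in warm WT, a ratio of 3.60 (2.34 to 5.73). At 37.2 kb (chr9:63568549-63568749) they were 7.93, 1.48, 2.81 and 1.60, a ratio of 2.83 (1.90 to 4.31). At 72.5 kb (chr9:63533214-63533414) they were 4.32, 0.93, 2.48 and 2.0, the lowest ratio of the intracellular arm, 1.75 (1.10 to 2.83). Upstream at -15.1 kb (chr9:63620817-63621017) cold HA was 5.81, cold WT 1.12, warm HA 2.07 and warm WT 0.61, a ratio of 2.82 (1.77 to 4.64). The intervals of the 6 overlapped.

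Smad6 had 4 windows, 3 of them in intron 3. The strongest, at 53.3 kb (chr9:63816462-63816662), had 16.56 FPKM in cold HA, 2.59 in cold WT, 3.46 in warm HA and 1.41 in warm WT, and its score ranked 784 of 11227. The ratio was 4.79 (3.43 to 6.84), and its interval lay above that of the highest Smad3 window. At 32.1 kb the values were 13.26, 1.48, 2.39 and 2.60, a ratio of 5.56 (3.73 to 8.55). The other 2, at 22.7 and 94.2 kb, had 5.11 and 4.17 in cold HA and ratios of 2.95 and 5.05. At 32.1 and 94.2 kb warm WT was above warm HA. The promoter with the Smad palindrome shown above is that of this gene, and its windows lie 22.7 kb or more from the start.

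**Figure D4:**
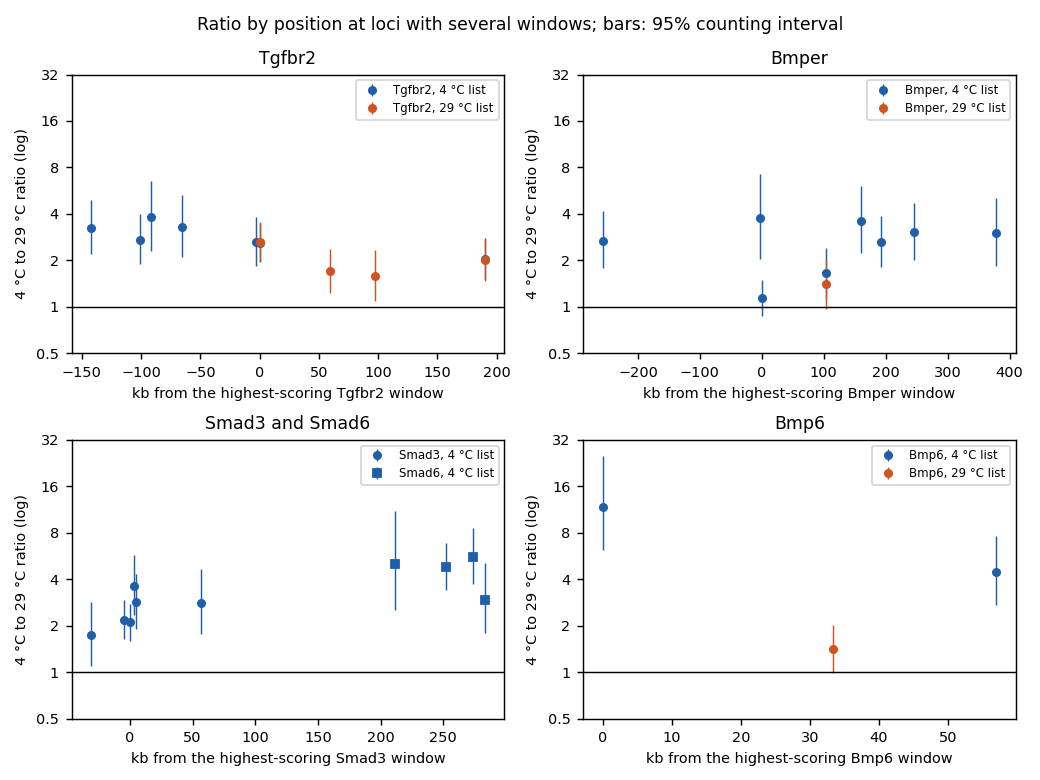
Cold to warm ratio (y, log scale) with its 95% counting interval against the position in kb from the highest-scoring window (x) at Tgfbr2, Bmper, the Smad3 and Smad6 neighbours, and Bmp6; blue points are cold-list windows, orange points are windows of the 29 °C list, squares are Smad6. Adjacent Bmper windows stand at 1.13 and 3.75, and the highest Smad6 window stands at 4.79 against 2.10 at Smad3.

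Smad7, which blocks both branches, had windows at -3.93 kb and, in intron 3, at 11.5 kb. Cold HA was 8.95 and 8.32 FPKM and warm HA 2.39 at both, with WT values of 1.30 and 1.48 in the cold and 1.80 and 2.40 in the warm. The ratios were 3.75 (2.48 to 5.85) and 3.49 (2.29 to 5.45). Smad1 and Smad5 carry the BMP signal. Smad1 had 1 window at -99.4 kb with 5.66, 1.12, 1.41 and 0.41 FPKM and a ratio of 4.04 (2.36 to 7.31).

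Smad5 had the window nearest to any pathway gene's start, 0.26 kb into intron 1 (chr13:56805187-56805387). It held 5.34 FPKM in cold HA, 0.75 in cold WT, 1.74 in warm HA and 2.0 in warm WT, a ratio of 3.09 (1.87 to 5.30). Smad5 and Tgfbi are neighbours.

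Smurf1 and Smurf2 encode ubiquitin ligases that mark Smads and receptors for breakdown. Smurf2 had 1 window at -36.8 kb (chr11:106818753-106818953) with 10.67 FPKM in cold HA, 0.93 in cold WT, 2.31 in warm HA and 2.20 in warm WT, a ratio of 4.63 (3.07 to 7.23). The 2 Smurf1 windows in intron 1 lay 521 bp apart, with 9.66 and 8.48 in cold HA and 3.22 and 1.33 in warm HA. Their ratios of 3.01 (2.08 to 4.43) and 6.44 (3.79 to 11.7) had overlapping intervals.

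All 4 Id genes, which encode helix-loop-helix proteins that lack a DNA-binding region and so sequester their partners, had a window, and they did not share a pattern. Id1 and Id4 were in the cold list alone, Id3 in both and Id2 in the 29 °C list alone. Of all protein-coding genes 21.8% had a cold-list window and 6.3% one at 29 °C. Id1 had 14.20 FPKM in cold HA, 3.51 in cold WT, 3.71 in warm HA and 2.80 in warm WT at 5.53 kb (chr2:152567415-152567615), a ratio of 3.84 (2.75 to 5.44). Its cold WT value was the highest among pathway windows of the cold list. A second Id1 window at -6.83 kb had 5.26, 0.75, 1.57 and 0.81 and a ratio of 3.36 (2.0 to 5.93).

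Id4 had 1 window at -67.4 kb, in intron 1 of the noncoding gene A330033J07Rik (chr13:48289340-48289540). It held 10.60 FPKM in cold HA, 1.30 in cold WT, 2.15 in warm HA and 1.01 in warm WT, a ratio of 4.95 (3.24 to 7.85).

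Id3 had 3 upstream sites. The highest in the cold list, at -17.5 kb (chr4:135682093-135682293), had 10.83 FPKM in cold HA, 2.59 in cold WT, 3.71 in warm HA and 1.01 in warm WT, a ratio of 2.92 (2.07 to 4.19). The site at -33.7 kb (chr4:135665963-135666163), in both lists, had nearly the same cold HA value, 10.52, with 2.04, 9.39 and 1.01 in the other pools. Its warm HA value was the highest of all pathway windows of the cold list, and its ratio of 1.12 (0.867 to 1.45) the lowest. As a window of the 29 °C list it scored 19.4, rank 424 of 2183. The remaining site, at -45.2 kb, was given to Id3 in the 29 °C list, with 6.68, 2.22, 4.04 and 0.61 and a ratio of 1.65 (1.15 to 2.40). It overlaps a cold-list window that carries the name of the neighbour Rpl11, so the absence of that site from the Id3 windows of the cold list is a matter of annotation.

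Id2 had 1 window, at -8.07 kb (chr12:25788931-25789131), in the 29 °C list alone, where its score of 14.3 ranked 724 of 2183. The FPKM were 4.48 in cold HA, 1.30 in cold WT, 7.16 in warm HA and 0.41 in warm WT. Warm HA was thus the higher of the HA pools, at a ratio of 0.62 (0.439 to 0.882). After subtraction of WT the values were 3.18 FPKM in the cold and 6.75 in the warm. Windows enter that list partly by low warm WT, so the subtraction is no separate support for the direction. Among all windows of that list alone 230 of 513 had a ratio below 1.

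Across the 29 °C list the 14 pathway windows had 3.96 to 9.71 FPKM in warm HA (median 4.70) and 3.07 to 14.12 in cold HA (median 6.52), so most were higher in the cold even here. The ratio was at least 2 in 2 of 14, 1 at Tgfbr2 and 1 at Fstl1, against 31.5% of all windows of that list, and at most 0.5 in 0 of 14, against 3.99%. The interval lay above 1 in 7 of 14, against 66.8%. Cold HA was below warm HA in 2 of 14, Id2 and Bmpr1b, against 18.2% of all. Both are windows of the 29 °C list alone, where 2 of 6 pathway windows and 230 of all 513 had a ratio below 1. With WT reads made equal over shared windows 7 of 14 were above 1, and over the 29 °C list 4 of 14, so the direction at the windows with ratios near 1 depends on the scaling.

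Of the 14, 8 overlapped a cold-list window (57.1%), against 76.5% of all, 7 of them one of a pathway gene. Of the 76 cold-list windows, 7 overlapped one of the 29 °C list (9.21%, interval 3.78 to 18.1), against 14.9%. These 7 belong to Acvr1c, Bmper, Fstl1, Id3, Tgfbi and, with 2, Tgfbr2. Their median ratio was 1.81, near the 1.88 of all shared windows. In the 69 windows of the cold list alone warm HA exceeded warm WT in 55, against 83.8% of all such windows. In the remaining 14 the warm pull-down was at or under background.

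Among the 19 genes with 2 or more listed windows the smallest and the largest ratio had intervals that did not overlap at 5: Acvr1c, Bmp6, Bmper, Id3 and Tgfbi. At the other 14 they overlapped. The same count over all genes was not made. The extremes were picked from windows of both lists, up to 11 per gene, so the count does not set these genes apart from others. At each of the 5 the window with the small ratio had a warm HA value of 4.20 FPKM or more, and the cold HA values of these windows were 5.03 to 10.75. Those of Acvr1c, Bmp6 and Id3 were listed at 29 °C, and that of Tgfbi overlaps one listed there. Listing at 29 °C asks for at least 3 FPKM over warm WT, and warm HA is the ratio's denominator. Their high warm values were thus largely set in advance. The Bmper window is in the cold list alone, and its ratio rose to 1.85 after subtraction of its high warm WT.

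Bmp2k, a kinase outside the receptor and Smad chain, had the 1 pathway-named window that the annotation puts in a promoter, at -0.94 kb (chr5:97425667-97425867). It held 4.56 FPKM in cold HA, 1.12 in cold WT, 2.48 in warm HA and 0.61 in warm WT, a ratio of 1.84 (1.17 to 2.97). The window lies outside the stretch of promoter shown above.

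Other genes of the pathway outside the name rule came from a list of 50, of which 48 were found by symbol. Of these, 22 had a cold-list window, against 21.8% of all protein-coding genes, and 4 (Furin, Skil, Thbs1 and Twsg1) one at 29 °C, against 6.3%. At the highest-scoring window 19 of 22 had a ratio of at least 2, against 82.1% of the highest-scoring windows of all 5451 genes, and 0 of 22 one of at most 0.5. The range ran from 1.30 at Twsg1, an extracellular BMP regulator, to 9.98 at Ski, a nuclear corepressor of Smads. At Ski cold HA was 12.32 FPKM, cold WT 2.22, warm HA 1.24 and warm WT 1.01. The median over the 22 was 3.02. Over the highest-scoring windows it was 3.48 for the 28 genes within the name rule, of which 25 reached 2, and 3.03 for all 5451 genes.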

How the data were processed

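Chromatin immunoprecipitation with sequencing was done on brown adipose tissue. Per the submitters' processing notes, Bowtie2 2.1.0, HOMER 4.10 and build mm9 were used, with settings not stated. The authors' deposited tables give, per 200 bp window, FPKM of each pool, to which 0.01 had been added, and a score of HA reads per 10 M pool reads, per the file headers and values. The aligned read counts per library come from the deposited aligner logs. Start positions are printed as given; whether they count from 0 or 1 is not stated.

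Reads per window were recovered from the FPKM steps, and 100% of values came out whole within 0.01 FPKM. Ratios are reads per pool read, with exact 95% intervals (scipy 1.17.1, pandas 2.3.3, Python 3.11.15), tested on simulated data. Windows sharing 1 bp count as 1 site. Pools hold 39.5 to 49.8% of aligned reads; the reason was not tested. Gene names matched RefSeq for 30 of 30.

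The genes and lists were chosen with earlier results of these data known. Full values were set for the highest-scoring site of every gene with a 29 °C window, of the 12 genes with the highest scores, of genes with a site within 1 kb, and of the 5 genes with the largest and the smallest ratio there, and for every site of the 3 genes with the most (4, as Acvr1c and Smad3 tie); other sites follow by range. Alternatives changed the scaling, WT subtraction, distance, overlap and strictness. Of the named genes, 1 is counted but not reported here.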

Additional observations from a re-analysis of the deposited data

Results flagged for a closer look

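At 14 windows of the cold list the HA pool was above WT in the cold and below WT at 29 °C. The difference between temperatures was not tested, since each condition is 1 pool. HA minus WT at 29 °C was -0.51 FPKM at the Acvr1c window at 14.9 kb and -0.89 at -7.4 kb. It was -0.18 at the Bmp6 window at -25.2 kb. At Bmper it was -0.16 at -277.2 kb, -0.64 at -23.0 kb, -0.18 at 140.4 kb and -0.24 at 224.7 kb. Ltbp1 at 33.6 kb had -0.11 and Smad5 at 0.3 kb had -0.26. Smad6 had -0.97 at 94.2 kb and -0.21 at 32.1 kb, and Smad7 had -0.01 at 11.5 kb. Tgfbr1 had -0.38 at -59.2 kb and -0.87 at -57.4 kb. In all cold-list windows the warm HA pool was below WT in 13.5%, against 18.4% (14 of 76) here. The worth of 3 reads is 0.598 FPKM in the warm WT pool, and 10 of the 14 differences are smaller than that.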

How the results depend on the processing

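The median ratio of 3.20 over cold-list windows became 2.22 with WT reads made equal over shared windows, 1.88 with them equal over the 29 °C list, 6.07 after subtraction of WT, 3.49 within 100 kb of the start, 3.48 at the highest-scoring window per gene and 1.50 over the windows of the 29 °C list. The share of windows at or above 2, 89.5%, became 67.1%, 44.7% and 14.3% under the first, second and last of these. Scaling by aligned reads, or on WT over the cold list, left both within their counting error. The count of 7 shared windows became 1 of 44 with 6 FPKM over WT asked for, and 1 of 10 with the cold list shortened to the length of the other, both of which leave fewer windows. The 30 genes became 11 within 10 kb. The 1 window past both limits at 29 °C became 5 with either limit alone. Among 37 single ratios, 19 left their counting interval with WT equal over shared windows, 32 with WT equal over the 29 °C list, 11 after subtraction and 0 under the other scalings. After subtraction the median over all cold-list windows was 4.96, and 17 of the 76 pathway windows stood at the floor of 3 reads at 29 °C, so 6.07 is partly set by that floor. No called ratio changed direction. No paired analysis was possible because binding values exist per pool only, and for the same reason no library could be left out.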
